A study of Mus musculus with 16 samples.

Results

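The genes of translation initiation factors and aminoacyl-tRNA synthetases were examined in positively selected, cMyc-expressing germinal center (GC) B cells of the mouse spleen. Members were taken by gene symbol, as initiation factor genes (Eif1 to Eif6, with their kinases and binding proteins) and aminoacyl-tRNA synthetase genes. Pseudogenes and the sex-linked Eif2s3x and Eif2s3y were left out. A gene under another form of symbol was not taken, and a symbol alone could admit a gene of another kind. The rule gave 91 of the 51912 genes measured. Total RNA had been sequenced from 16 libraries, 4 for each of 4 subpopulations. The donors were cMyc gfp/gfp reporter mice on a C57BL/6J background, in which the cMyc gene itself carries the GFP tag, male and female, 6 to 15 weeks old, and every group therefore carried the reporter. All had been immunized intraperitoneally with sheep red blood cells (SRBC), and splenic B cells were sorted on day 7 after removal of CD43-positive cells. The cMyc+prePB cells, described as plasmablast precursors, were B220+ CD38low CD95+ cMycGFP+ CD69hi. The cMyc+early subpopulation was high, the cMyc+lateCD23int intermediate and the cMyc+lateCD23lo low for both CD23 and CD21/35. No unimmunized or cMyc-negative group was compared here.

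Initiation factors bring the small ribosomal subunit, the initiator methionyl-tRNA and the capped mRNA together. eIF2 delivers the initiator tRNA and is recharged by eIF2B, eIF3 is the large scaffold on the small subunit, and the eIF4 factors recognize the cap and unwind the mRNA. Aminoacyl-tRNA synthetases attach each amino acid to its tRNA, with separate enzymes for most amino acids in the cytosol and in mitochondria. Many of these genes are known targets of cMyc, and cytosolic synthetase genes are also known targets of ATF4, the transcription factor of the amino acid and stress response.

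The promoters of the members were searched for the motifs of both factors, and the windows of 5 cytosolic synthetases held the second. RefSeq promoter windows (GRCm38.p6), from 250 bases before to 50 bases after a start site, were found for 69 of the 91 members. Each was searched on both strands for CACGTG, the E-box bound by cMyc with its partner Max, and for TGATGNAA, the core of the C/EBP-ATF response element (CARE) bound by ATF4, where N is any base. The E-box was found in 15 of the 69 members (21.7%), against 8.09% of the 27025 genes with a window. Those 27025 genes were taken whatever their expression in these cells, and windows were not matched for GC content. The shares are therefore not read as particular to the members. The CARE core was found in 5 of the 69 members (7.25%), against 4.51% of all genes. All 5 were cytosolic synthetases, Aars (alanine), Gars (glycine), Iars (isoleucine), Tars (threonine) and Yars (tyrosine), among 13 cytosolic synthetases with a window (38.5%). They are shown from 200 bases before to 50 after the start site because they carry the motif, with the CARE core and the E-box in capitals, the E-box being CACGTG and every other run of capitals a CARE core on one strand or the other.
Aars promoter, chr8:111033642-111033891, plus strand: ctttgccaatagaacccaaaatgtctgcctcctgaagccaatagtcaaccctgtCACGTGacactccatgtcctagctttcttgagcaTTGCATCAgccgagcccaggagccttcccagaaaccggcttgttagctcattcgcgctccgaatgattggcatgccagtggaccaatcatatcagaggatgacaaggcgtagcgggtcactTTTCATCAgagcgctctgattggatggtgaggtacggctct
Gars promoter, chr6:55037801-55038050, plus strand: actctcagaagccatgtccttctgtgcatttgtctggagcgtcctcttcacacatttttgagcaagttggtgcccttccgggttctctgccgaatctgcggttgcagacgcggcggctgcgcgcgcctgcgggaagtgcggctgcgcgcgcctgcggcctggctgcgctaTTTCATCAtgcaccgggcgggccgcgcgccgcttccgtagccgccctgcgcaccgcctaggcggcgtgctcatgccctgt
Iars promoter, chr13:49681930-49682179, plus strand: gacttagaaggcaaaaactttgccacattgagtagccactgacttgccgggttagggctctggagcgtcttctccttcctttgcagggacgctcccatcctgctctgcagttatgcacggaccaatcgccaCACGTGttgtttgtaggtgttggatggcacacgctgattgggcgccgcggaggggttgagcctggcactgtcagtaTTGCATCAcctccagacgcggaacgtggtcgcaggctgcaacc
Tars promoter, chr15:11399609-11399858, minus strand: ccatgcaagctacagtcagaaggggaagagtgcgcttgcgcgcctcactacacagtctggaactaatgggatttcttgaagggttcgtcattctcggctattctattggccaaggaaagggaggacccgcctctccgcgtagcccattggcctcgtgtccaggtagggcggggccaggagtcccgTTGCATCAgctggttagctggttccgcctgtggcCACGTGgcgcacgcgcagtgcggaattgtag
Yars promoter, chr4:129189703-129189952, plus strand: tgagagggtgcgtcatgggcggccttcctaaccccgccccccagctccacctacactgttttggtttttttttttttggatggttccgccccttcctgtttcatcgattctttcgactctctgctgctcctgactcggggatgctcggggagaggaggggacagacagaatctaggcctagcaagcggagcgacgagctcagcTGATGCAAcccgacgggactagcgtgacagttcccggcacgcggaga
Aars held 2 CARE cores and an E-box, Iars and Tars each held 1 core and 1 E-box, and Gars and Yars held 1 core and no E-box. In Gars, Iars, Tars and Yars the center of the core lay within 26 bases of the start site. A match is a description of these letters, and binding was not measured.

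Among the initiation factors, Eif4a1 and Eif5a were the most abundant of their groups per kilobase of exon, and each had an E-box in a promoter. Eif5a has 6 start sites in the table, of which 3 had an E-box in the window, the same one in 2 of them, and 1 of these is shown. The capitals mark the E-box.
Eif4a1 promoter, chr11:69672374-69672623, minus strand: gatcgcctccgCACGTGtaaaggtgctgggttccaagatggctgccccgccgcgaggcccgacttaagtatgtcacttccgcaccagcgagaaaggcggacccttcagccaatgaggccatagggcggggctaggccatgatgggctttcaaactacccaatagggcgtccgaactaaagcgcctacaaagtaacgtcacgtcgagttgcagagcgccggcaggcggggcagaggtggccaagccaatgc
Eif5a promoter, chr11:69921226-69921475, minus strand: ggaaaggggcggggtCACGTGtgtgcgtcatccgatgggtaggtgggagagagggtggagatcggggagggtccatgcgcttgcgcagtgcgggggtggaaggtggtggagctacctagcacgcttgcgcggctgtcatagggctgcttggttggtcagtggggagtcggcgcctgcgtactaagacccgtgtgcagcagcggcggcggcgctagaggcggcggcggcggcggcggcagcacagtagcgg
Other members with an E-box were Eif4e, Eif4g1, Eif4h, Eif1b, Eif3a, Eif3f, Eif3k, Eif5a2, Farsb and Ears2.

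Reads per library ranged from 19812080 to 25795815. Levels are given as the normalized counts that the authors deposited, in which all counts of a library share 1 scaling factor. Of the 91 members, 88 had a mean normalized count of at least 10 and were tested together with all other genes over that limit, 12505 in all. Eif4e1b, an oocyte form of the cap-binding protein, and Eif2c5, which carries an older Argonaute symbol, were listed at 0 in all 16 libraries, and Eif4ebp3 had a mean of 14.7 in cMyc+lateCD23lo, 8.57 in cMyc+prePB, 8.53 in cMyc+early and 0 in cMyc+lateCD23int. In 85 of the 88 tested members, every library was above 3 reads. Markers of B cells (Ms4a1) and GC B cells (Bcl6, Fas) were high in all libraries, while the plasma cell genes Sdc1, Prdm1 and Tnfrsf17 reached at most 108, 133 and 24.3 normalized counts in any library, cMyc+prePB included. The summed level of the whole plasma cell list, mostly Jchain, ranged from 36387 to 110788 in cMyc+prePB, 22716 to 29244 in cMyc+early, 30564 to 58707 in cMyc+lateCD23int and 55349 to 89659 in cMyc+lateCD23lo. Of the 6 T cell genes, Lck had 2157 to 6839 normalized counts and the others (Cd3d, Cd3e, Cd3g, Cd4 and Cd8a) at most 73.9, with a summed level from 4528 to 6943 in cMyc+prePB, 2163 to 3855 in cMyc+early, 4726 to 6526 in cMyc+lateCD23int and 4002 to 5801 in cMyc+lateCD23lo, and 3 of the 4 neutrophil genes did not exceed 3 reads in any library. Xbp1, also a plasma cell gene, had 3284 to 5894 normalized counts. Erythroid genes summed to 165 to 3131 in cMyc+prePB, 473 to 2428 in cMyc+early, 783 to 4954 in cMyc+lateCD23int and 682 to 1509 in cMyc+lateCD23lo. In the same order, macrophage and monocyte genes summed to 307 to 845, 201 to 388, 268 to 927 and 755 to 1428. Stroma and follicular dendritic cell genes, mostly Pecam1, summed to 243 to 784, 942 to 1329, 702 to 1308 and 493 to 698. In bulk samples of this kind, fewer cells of a type and less RNA per cell cannot be told apart.

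The levels of the 88 tested members spanned several orders of magnitude, and the lowest and highest of each group are given among these. Per kilobase of exon, Eif5a, whose hypusine-bearing product assists elongation and termination, had the highest level, with 26388 ± 6770 normalized counts per kb (SD, n = 4) in cMyc+prePB, 21227 ± 5544 for cMyc+early, 18746 ± 5282 in cMyc+lateCD23int and 16616 ± 4459 in cMyc+lateCD23lo. Its paralog Eif5a2 had a mean of 55.7 per kb over all libraries. Among the 11 tested eIF4 factors, Eif4a1, the cap-complex helicase, had the highest level, with a mean of 9300 per kb, and Eif4g3 the lowest with 80.8. The other leading genes were Eif1 (5674 per kb), which guards start codon choice, Eif3h (5453), Eif2s1, the alpha subunit of eIF2 (3457), Eif2b2 (1157), and the repressor Eif4ebp1 (407). The least abundant tested genes of the corresponding groups were Eif1ad (767), Eif3j1 (61.0), Eif2d (143), Eif2b3 (375) and Eif4ebp2 (101). Eif3j2, a paralog of Eif3j1 with 1 exon block, had 1112 per kb, and reads may be shared between them. All 4 eIF2 kinases were low, between 32.3 per kb for Eif2ak4, the amino acid sensor GCN2, and 160 for Eif2ak1. Cytosolic synthetases had a median of 573 per kb, from 139 for Vars (valine) to 2754 for Nars (asparagine). The mitochondrial synthetases had a median of 56.2 per kb, from 3.72 for Vars2 to 1291 for Rars2. Neighbors in these orders often differed by less than the spread, and Eif1 and Eif3h overlapped in their SD in each subpopulation.

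The share of reads in all members together had its highest mean in cMyc+prePB and its lowest in cMyc+lateCD23lo, with overlapping groups. The 91 genes took 2.27 ± 0.218% of the reads (SD, n = 4) in cMyc+prePB, 2.08 ± 0.239% for cMyc+early, 1.97 ± 0.189% in cMyc+lateCD23int and 1.92 ± 0.241% in cMyc+lateCD23lo. The single libraries of cMyc+prePB held 1.95, 2.42, 2.33 and 2.38%, and those of cMyc+lateCD23lo 1.57, 2.07, 1.96 and 2.07%. Library 1 of cMyc+prePB lay below 3 of the 4 cMyc+lateCD23lo libraries.

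The multigroup comparison asked whether a member differed among the 4 subpopulations. No member passed an adjusted p-value under 0.05 in the limma F test, where 51 of all 12505 genes did (0.408%). Before adjustment, 4 of the 88 members had p under 0.05 (Eif2b3, Eif3i, Eif4ebp1 and Eif6, 4.55%), against 10.2% of all genes. DESeq2 called 1 member in this comparison, Eif2b3 (adjusted p = 0.0316), and edgeR without a block called 0. Members called in the pairwise comparisons were also 0 in limma, where the share of all genes called was 0.192% for cMyc+prePB against cMyc+early, 0.144% for cMyc+prePB against cMyc+lateCD23int, 0.264% for cMyc+prePB against cMyc+lateCD23lo, 0.008% for cMyc+early against cMyc+lateCD23int, 0.28% for cMyc+early against cMyc+lateCD23lo and 0.008% for cMyc+lateCD23int against cMyc+lateCD23lo. With an unadjusted p-value under 0.05 the members numbered 4, 4, 13, 1, 1 and 3 in these comparisons, in the same order, and the shares of all genes were 8.58, 8.77, 12.7, 3.71, 10.3 and 6.28%. The share of members was 14.8% for cMyc+prePB against cMyc+lateCD23lo, the comparison with the most, and 12 of these 13 had the higher mean in cMyc+prePB, Eif5 being the exception. With cMyc+prePB set against the mean of the other 3 subpopulations, 0 members were called, against 0.312% of all genes, and 9 had an unadjusted p-value under 0.05 (10.2% of members and 11.1% of all genes), each with the higher mean in cMyc+prePB. edgeR called 0 members in every pairwise comparison. DESeq2 called Eif2b3 in cMyc+prePB against cMyc+lateCD23int, Eif4ebp1 in cMyc+prePB against cMyc+lateCD23lo, and Eif4ebp1 and Eif6 in cMyc+prePB against the other 3. It called 0 members in the remaining comparisons. In the multigroup test DESeq2 called more of all genes than limma did. Its shares of all genes in the other comparisons are not given, so these calls are not read as particular to the members. The labels do not say which libraries came from separate animals, and the p-values measure the spread between these libraries.

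The libraries of cMyc+prePB lay entirely above those of cMyc+early in 2 members (Eif3i and Eif6, 2.27%, against 2.06% of all genes), above those of cMyc+lateCD23int in 6 (Eif2b3, Eif3g, Eif4e, Eif6, Iars2 and Nars, 6.82%, against 2.46%) and above those of cMyc+lateCD23lo in 5 (Eif4a1, Eif4ebp1, Eif6, Iars2 and Vars, 5.68%, against 3.01%). They lay entirely below in 0 members, against 2.18, 2.75 and 3.55% of all genes. Those of cMyc+early lay above cMyc+lateCD23int in 3 members (Eif2b3, Eif3c and Eif4a3, 3.41%, against 1.11%) and above cMyc+lateCD23lo in 1 (Iars2, 1.14%, against 2.86%), and below in 0 (against 1.37 and 3.37%). Those of cMyc+lateCD23int lay below cMyc+lateCD23lo in 1 member (Eif2b3, 1.14%, against 1.86%) and above in 0 (against 1.91%).

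Eif6 encodes an anti-association factor that binds the large ribosomal subunit (chr2:155819832-155826925, minus strand). Its normalized counts were 8708, 8922, 10604 and 9212 in the cMyc+prePB libraries, 6590, 7377, 8659 and 7620 in cMyc+early, 5222, 7157, 6624 and 6654 in cMyc+lateCD23int, and 5224, 7426, 7052 and 8065 in cMyc+lateCD23lo. All 4 cMyc+prePB libraries were above all 12 others, which held for 1 of 88 members and for 0.328% of all genes, and no member was below all others, against 0.264%. The lowest cMyc+prePB library exceeded the highest cMyc+early library only slightly, 8708 against 8659. The log2 difference to the other 3 subpopulations was 0.44 (SE 0.12; limma adjusted p = 0.158). Exons of Eif6 overlap an opposite-strand gene, Gm16098, and the library kit did not mark strand.

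Eif4ebp1 encodes the repressor that holds eIF4E away from the cap complex until mTORC1 phosphorylates it (chr8:27260329-27276674, plus strand). The cMyc+prePB libraries had 886, 1232, 1289 and 1528 normalized counts. Those of cMyc+early had 688, 874, 904 and 729, those of cMyc+lateCD23int 735, 834, 833 and 933, and those of cMyc+lateCD23lo 568, 786, 632 and 867. Libraries 2 to 4 of cMyc+prePB were above all others, while library 1 lay within the range of cMyc+early and cMyc+lateCD23int. Eif4ebp1 had the lowest adjusted p of any member against the other 3 subpopulations, with a log2 difference of 0.65 (SE 0.17; limma adjusted p = 0.135). Against cMyc+lateCD23lo the difference was 0.78 (adjusted p = 0.138 in limma). It was 0.93 with a limma adjusted p of 0.0405 without library 1 of cMyc+prePB, the only 1 of 16 single-library omissions with a call. That fit kept library 1 of cMyc+lateCD23lo, and no member was called without the 4 libraries numbered 1. The other binding proteins, Eif4ebp2 and Eif4enif1, differed by 0.10 and -0.08 from the other 3 subpopulations.

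Eif2b3 encodes the gamma subunit of eIF2B, which reloads eIF2 with GTP (chr4:117019402-117087306, plus strand). It had 2618, 3478, 3240 and 2939 normalized counts in cMyc+prePB, 2075, 2130, 3483 and 2085 in cMyc+early, 1360, 1902, 1750 and 1922 in cMyc+lateCD23int, and 2202, 2450, 2715 and 2727 in cMyc+lateCD23lo. The cMyc+lateCD23int libraries were below those of each other subpopulation. Library 3 of cMyc+early stood apart from the other three of its group and was the highest of all 16. The log2 difference between cMyc+prePB and cMyc+lateCD23int was 0.83 (SE 0.19, limma adjusted p = 0.0901). The limma adjusted p was 0.0438 without that cMyc+early library, the only 1 of 16 single-library omissions with a call. That library is in neither group compared, and the difference stayed at 0.83. No member was called without the 4 libraries numbered 1. Of the other eIF2B subunits, Eif2b5, the catalytic one, had means of 2157 ± 322 in cMyc+prePB, 1600 ± 713 for cMyc+early, 1715 ± 496 in cMyc+lateCD23int and 1424 ± 402 in cMyc+lateCD23lo, and differed by 0.51 from the other 3 subpopulations (SE 0.24; adjusted p = 0.445). Eif2b4 differed by 0.27, Eif2b1 by -0.03 and Eif2b2 by -0.15, so that 3 of the 5 subunits had the higher mean in cMyc+prePB. All 5 did without library 1 of cMyc+prePB, with library 1 of the other groups kept.

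Eif3i, Eif3g and Eif3d were among the members with the lowest p-values. Eif3i, the WD-repeat subunit (chr4:129591960-129600648, minus strand), had 4821, 5159, 5675 and 6632 normalized counts in cMyc+prePB and 4005, 4204, 4285 and 3984 in cMyc+early. It had 4387, 4637, 4053 and 5126 in cMyc+lateCD23int and 3485, 4059, 3785 and 5068 in cMyc+lateCD23lo. The cMyc+prePB libraries were above all of cMyc+early and overlapped the late groups, with a log2 difference of 0.39 to the other 3 (SE 0.12; limma adjusted p = 0.204).

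Eif3g, an RNA-binding subunit (chr9:20894349-20898623, minus strand), had 5820, 7264, 7421 and 7131 in cMyc+prePB, 4387, 6267, 6007 and 6442 in cMyc+early, 4815, 5161, 5060 and 5764 in cMyc+lateCD23int, and 4224, 5639, 6784 and 6541 in cMyc+lateCD23lo. All cMyc+prePB libraries were above all cMyc+lateCD23int libraries. Eif3d, the subunit able to bind the cap (chr15:77958998-77970813, minus strand), had 2863, 4031, 3269 and 3568 in cMyc+prePB, 3273, 3531, 3210 and 3298 in cMyc+early, 2198, 2166, 2933 and 3446 in cMyc+lateCD23int, and 2000, 2926, 3273 and 3107 in cMyc+lateCD23lo, and its groups overlapped. Exons of Eif3d overlap the opposite-strand gene Gm17638 over 2151 bases. Over all 14 eIF3 genes the median log2 difference between cMyc+prePB and the other 3 subpopulations was 0.08, with 12 higher. The core subunits Eif3a and Eif3c differed by -0.02 and 0.12, while Eif3b reached 0.58, with means of 4730 ± 1907 in cMyc+prePB, 4112 ± 2448 for cMyc+early, 3735 ± 2079 in cMyc+lateCD23int and 2247 ± 486 in cMyc+lateCD23lo.

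The cap-binding and helicase genes diverged within the group. Eif4a1 (chr11:69666936-69672423, minus strand) had 38698, 49662, 47998 and 53563 normalized counts in cMyc+prePB, 30078, 40970, 41015 and 41406 in cMyc+early, 39795, 37844, 38784 and 42479 in cMyc+lateCD23int, and 28489, 37367, 38055 and 38676 in cMyc+lateCD23lo. All cMyc+prePB libraries were above all cMyc+lateCD23lo libraries, the closest being 38698 and 38676, and the log2 difference to the other 3 subpopulations was 0.32 (SE 0.12; limma adjusted p = 0.29). Its near-identical paralog Eif4a2, with which reads may be shared, differed by -0.21 (SE 0.21; adjusted p = 0.746). Eif4g1, the scaffold of the cap complex, had means of 1244 ± 568, 1195 ± 675, 978 ± 326 and 630 ± 304 from cMyc+prePB to cMyc+lateCD23lo in the order above. Eif4e, which binds the cap itself, had 11498 ± 504, 10955 ± 2034, 9393 ± 1351 and 11165 ± 2035, and its cMyc+prePB libraries were above all of cMyc+lateCD23int. Eif4e3, a divergent cap-binding paralog, differed by -0.50 from the other 3 subpopulations, the most negative value of an initiation factor (SE 0.32; adjusted p = 0.581).

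Eif5a (chr11:69916714-69921958, minus strand) had 39390, 64789, 74316 and 72401 normalized counts in cMyc+prePB, 33690, 61345, 46183 and 60606 in cMyc+early, 28462, 40714, 54425 and 54639 in cMyc+lateCD23int, and 24681, 48056, 39111 and 46137 in cMyc+lateCD23lo. Library 1 was the lowest of each subpopulation, and libraries 2 to 4 of cMyc+prePB were above all others. The fit behind the next values did not use the library number. The log2 difference was 0.49 to the other 3 subpopulations (SE 0.22; limma adjusted p = 0.395) and 0.67 to cMyc+lateCD23lo (SE 0.26; adjusted p = 0.296). Eif5, the GTPase activator of eIF2, differed by -0.47 from cMyc+lateCD23lo (adjusted p = 0.385), with means of 26029 ± 6841 in cMyc+prePB and 35379 ± 3383 in cMyc+lateCD23lo. Eif2d, an alternative carrier of initiator tRNA (chr1:131153181-131187658, plus strand), had 452, 1268, 1572 and 1206 normalized counts in cMyc+prePB, 815, 1430, 833 and 1357 in cMyc+early, 1460, 1072, 1491 and 977 in cMyc+lateCD23int, and 661, 569, 981 and 711 in cMyc+lateCD23lo. Only 1 of its cMyc+lateCD23int libraries, at 977, was below the highest cMyc+lateCD23lo library, at 981, and its difference between these groups was 0.78 (limma adjusted p = 0.754). Eif2s1 was level, with 17750 ± 1404, 17122 ± 2569, 16471 ± 2582 and 17129 ± 2679 in the 4 subpopulations.

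The remaining groups had no call. All 4 genes of eIF2 and initiator tRNA delivery had a higher mean in cMyc+prePB, by 0.06 to 0.13 on the log2 scale, and 2 of the 5 eIF1 and eIF1A genes did (3 with all libraries scaled to the same total). Eif1ax, the X-linked form of eIF1A, which scans for the start codon with eIF1, had 6736 ± 745 in cMyc+prePB and 7100 ± 969 in cMyc+lateCD23lo. Of the eIF2 kinases, which shut down initiation under stress, Eif2ak3 (PERK, the sensor of the endoplasmic reticulum) had its lowest mean in cMyc+early, with 211 ± 137, against 310 ± 133 in cMyc+prePB, 359 ± 110 in cMyc+lateCD23int and 377 ± 123 in cMyc+lateCD23lo. Eif2ak4 had 175 ± 126, 213 ± 91.4, 249 ± 92.4 and 328 ± 161 in the same order, while Eif2ak2, the sensor of double-stranded RNA, had its highest mean in cMyc+early, with 739 ± 429 against 430 ± 191 in cMyc+lateCD23lo. Between cMyc+early and cMyc+lateCD23lo the log2 differences of the 4 kinases ran from -1.28 to 0.64, with a median of -0.54 and a median SE of 0.54. Between cMyc+prePB and the other 3 subpopulations they ran from -0.08 to 0.24.

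**Figure D1:**
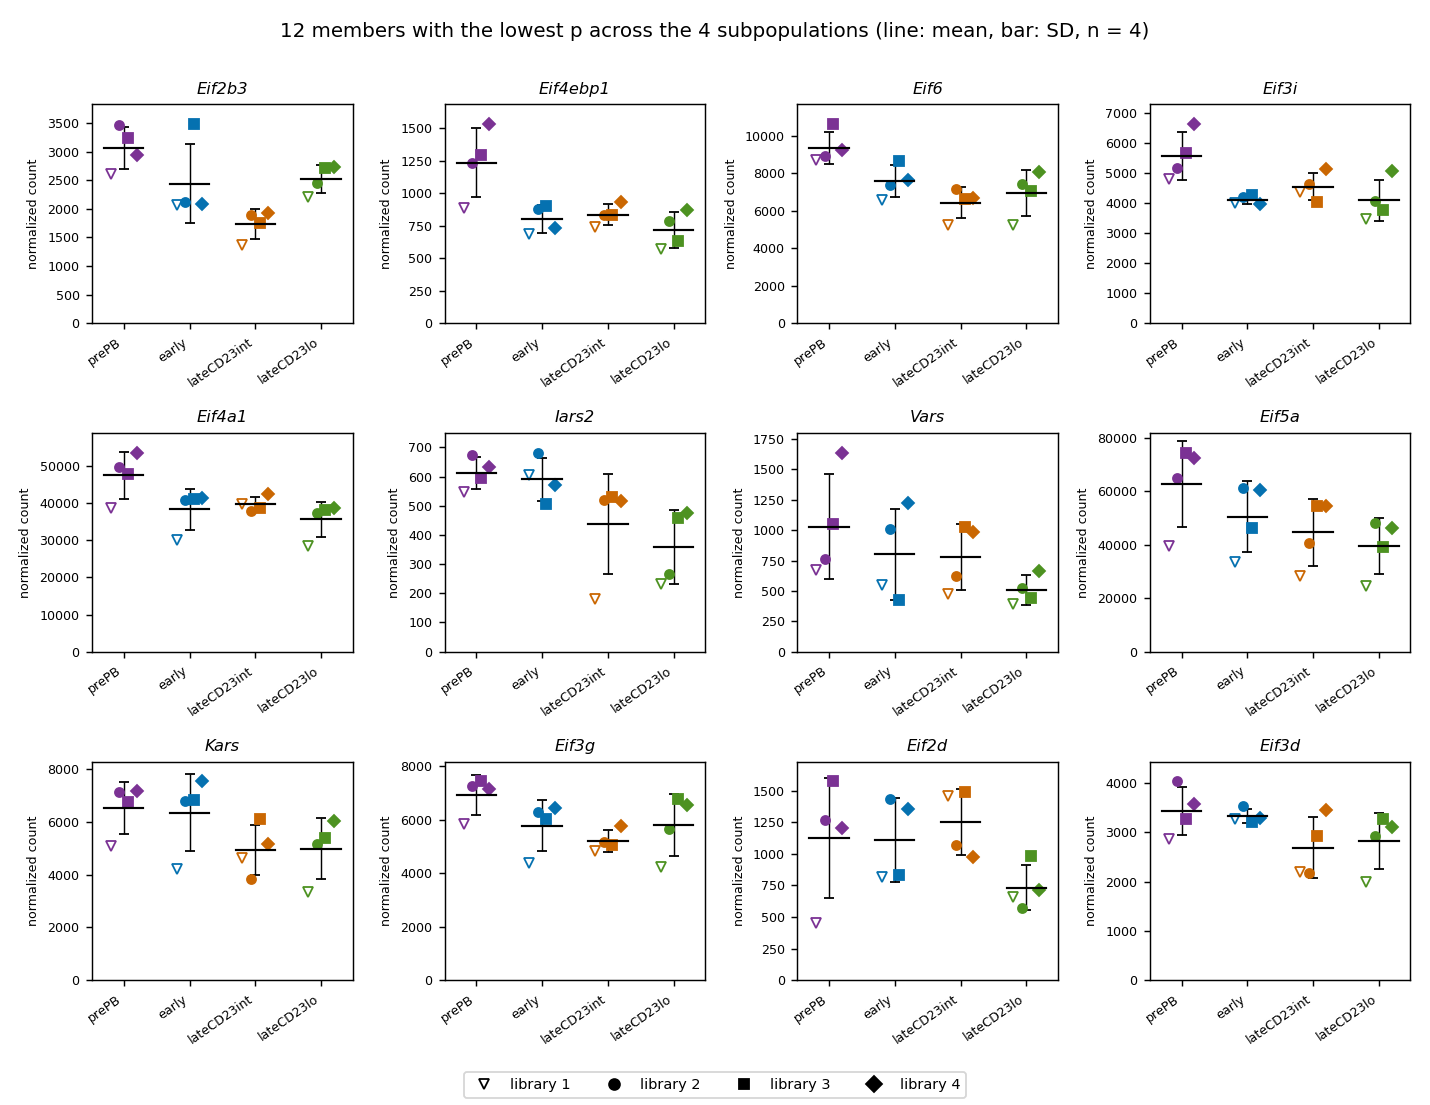
Normalized counts (y axes, from 0) of the 12 members with the lowest F-test p-values in each of the 16 libraries, by subpopulation (x axes); symbols give the library number, lines the mean and bars the SD (n = 4). The cMyc+prePB libraries of Eif6 sit between 8708 and 10604, above all others, and library 1 (open triangle) of Eif5a is the lowest of each subpopulation.

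The cytosolic synthetases had mostly higher means in cMyc+prePB, without a call. Of 20, 18 were above the mean of the other 3 subpopulations on the log2 scale, with a median log2 difference of 0.29 (all genes 0.00), from -0.10 for Qars (glutamine) to 0.63 for Mars (methionine). Without library 1 of cMyc+prePB the median was 0.49. Vars (chr17:35000987-35016322, plus strand) had 671, 762, 1050 and 1637 normalized counts in cMyc+prePB, 550, 1008, 425 and 1222 in cMyc+early, 476, 620, 1028 and 989 in cMyc+lateCD23int, and 391, 526, 445 and 667 in cMyc+lateCD23lo. All cMyc+prePB libraries were above those of cMyc+lateCD23lo, the closest being 671 and 667, with a log2 difference of 0.96 (SE 0.36; limma adjusted p = 0.274). Kars, the lysine enzyme (chr8:111993443-112011323, minus strand), had 5089, 7135, 6774 and 7159 in cMyc+prePB, 4227, 6813, 6832 and 7539 in cMyc+early, 4618, 3847, 6110 and 5159 in cMyc+lateCD23int, and 3359, 5153, 5404 and 6056 in cMyc+lateCD23lo, and all groups overlapped. The 5 genes with a CARE core covered most of this range. Aars differed by 0.50 (SE 0.34), Yars by 0.41 (SE 0.21), Tars by 0.39 (SE 0.18), Iars by 0.38 (SE 0.33) and Gars by 0.00 (SE 0.20) from the other 3 subpopulations. Eprs, the bifunctional glutamate and proline enzyme and one of the most abundant synthetases, had 20299 ± 2586 in cMyc+prePB and 20673 ± 4988 in cMyc+lateCD23lo, a log2 difference of 0.00 with a 95% interval from -0.38 to 0.37. Mars had means of 1486 ± 680 and 671 ± 265 in the same groups, and Wars (tryptophan) 912 ± 544 and 414 ± 63.8, both with adjusted p over the threshold (0.428 and 0.667). Exons of Mars overlap those of Ddit3, on the opposite strand, over 68 bases.

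The mitochondrial synthetases had lower levels and larger errors. Of 17, 11 had a higher mean in cMyc+prePB, with a median log2 difference of 0.29 but a range from -0.85 for Ears2 (glutamate) to 0.91 for Tars2 (threonine). The median was 0.10 and 0.13 without library 4 or 3 of cMyc+prePB, 0.12 without library 1 of cMyc+early and 0.19 without library 1 of cMyc+lateCD23lo. Their median SE was 0.41, against 0.21 for the cytosolic synthetases. Iars2 (chr1:185284726-185329396, minus strand) had 546, 676, 596 and 632 normalized counts in cMyc+prePB, 606, 681, 506 and 570 in cMyc+early, 180, 519, 531 and 517 in cMyc+lateCD23int, and 231, 266, 460 and 476 in cMyc+lateCD23lo. Both cMyc+prePB and cMyc+early were above cMyc+lateCD23lo in every library, with log2 differences of 0.84 (SE 0.34; limma adjusted p = 0.309) and 0.79 (adjusted p = 0.435). Exons of Iars2 overlap opposite-strand genes, among them Rab3gap2, over 2148 bases. Tars2 had 904 ± 376 in cMyc+prePB, 549 ± 393 for cMyc+early, 677 ± 346 in cMyc+lateCD23int and 385 ± 178 in cMyc+lateCD23lo, and Sars2 (serine) 329 ± 110, 302 ± 240, 305 ± 130 and 173 ± 144. The lowest mean of both genes was in cMyc+lateCD23lo, and neither was called.

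**Figure D2:**
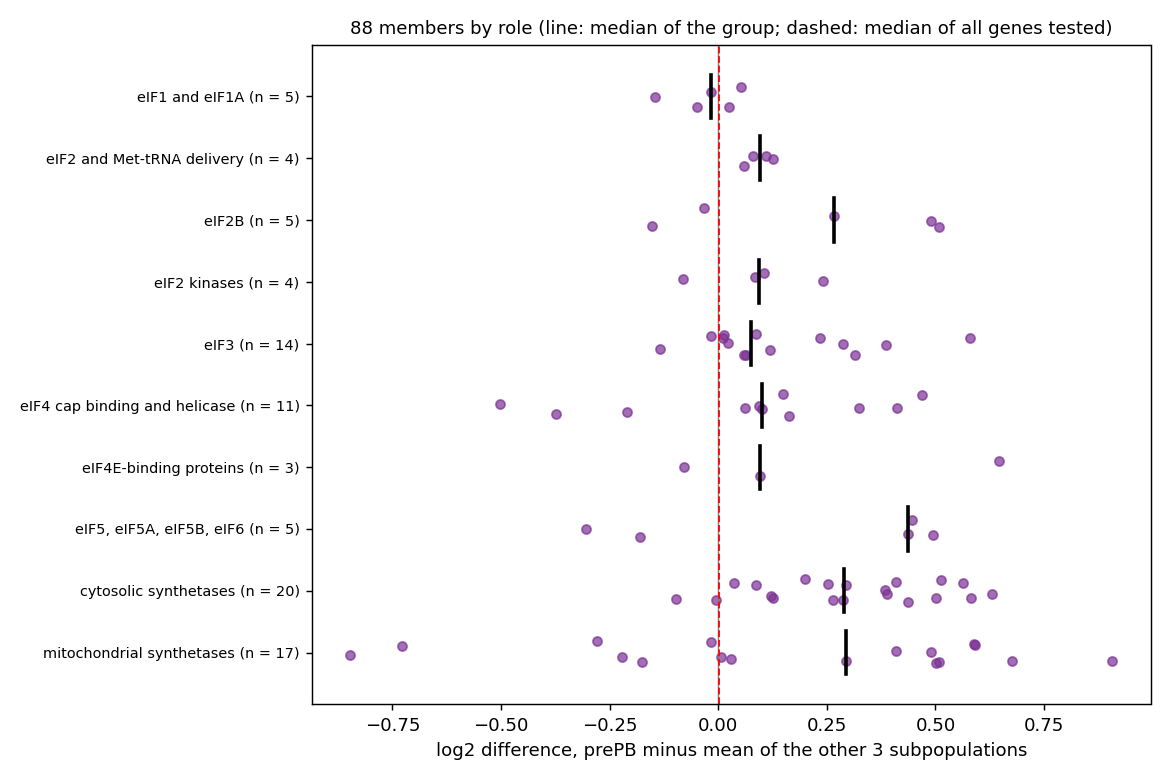
Log2 difference between cMyc+prePB and the mean of the other 3 subpopulations (x axis) for each of the 88 tested members (points), in 10 groups by role (y axis); black lines are group medians, the dashed line the median of all 12505 genes. Medians were 0.29 for both synthetase groups and -0.02 for eIF1 and eIF1A (0.03 with all libraries scaled to the same total), and the mitochondrial synthetases spread from -0.85 to 0.91.

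Across all 88 members the differences were small. In 66 of 88 members cMyc+prePB had the higher mean against the other 3 together, as in 50.3% of all genes, with median log2 differences of 0.12 and 0.00. The subpopulation with the highest mean was cMyc+prePB in 47 members (53.4%, against 27.9% of all genes), and cMyc+lateCD23lo in 14 (15.9%, against 28%). The lowest mean was in cMyc+lateCD23lo in 31 (35.2%, against 28.1%), in cMyc+lateCD23int in 26 (29.5%, against 18.7%), in cMyc+early in 18 (20.5%, against 24.8%) and in cMyc+prePB in 13 (14.8%, against 28.5%). The means stood in the order cMyc+prePB, cMyc+early, cMyc+lateCD23int, cMyc+lateCD23lo in 16 (18.2%, against 6.63%). Median differences were 0.12, 0.16 and 0.16 for cMyc+prePB against the 3 others singly, 0.07 and 0.09 for cMyc+early against the late groups, and 0.00 between the late groups, and comparisons with cMyc+prePB share its libraries. These medians depended on single libraries. Against the other 3 together, the median was 0.20 without library 1 of cMyc+prePB, with library 1 of the other groups kept. For cMyc+prePB against cMyc+early it was 0.01 without library 1 of cMyc+early, 0.05 without library 2 and 0.08 without library 3 of cMyc+prePB. Against cMyc+lateCD23lo it was 0.27 without library 1 of cMyc+prePB and 0.09 without library 1 of cMyc+lateCD23lo. With 1 library left out, the medians of cMyc+early ranged from -0.03 (without its library 4) to 0.16 (without its library 1) against cMyc+lateCD23int, where the sign also turned without library 1 of cMyc+lateCD23int (-0.02), and from 0.00 (without library 1 of cMyc+lateCD23lo) to 0.19 (without library 1 of cMyc+early) against cMyc+lateCD23lo. Between the late groups the range was -0.07 to 0.07, the ends being without library 1 of either group. GC content moved with the difference between cMyc+prePB and the other 3 together. Over 12471 genes with a known transcript, the correlation across genes between GC content and the difference was 0.16, where genes are not independent replicates, and its median was -0.13 in genes with GC under 44.1% and 0.16 in genes over 53.4%. In members the medians were 0.04 (19 genes) and 0.45 (16 genes). The part of GC content in the result was not tested.

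The levels of the members also varied between the libraries of 1 subpopulation. Library 1 had the lowest median level of the members in every subpopulation, at -0.05, -0.18, -0.22 and -0.37 on the log2 scale relative to each gene's mean over 16 libraries, while libraries 2 to 4 lay between -0.07 and 0.27. In 18 of 88 members (20.5%), library 1 was the lowest in all 4 subpopulations, against 4.09% of all genes, and in no member was it the highest in all 4, against 4.23% of all genes. The 18 included Eif5a, Eif6, Eif4ebp1, Eif3b, Eif3g, Mars, Tars and Yars and 4 of the 5 eIF2B subunits. Across all genes, library 1 was lower than the others in genes of high GC content (median log2 difference -0.31) and higher in genes of low GC content (0.22), and in the members the values were -0.68 and 0.06. The part of this in the levels of the members was not tested. Without the 4 libraries numbered 1, cMyc+prePB was higher in 63 of 88 members, with a median difference of 0.14, and 19 of the 20 cytosolic synthetases were higher.

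**Figure D3:**
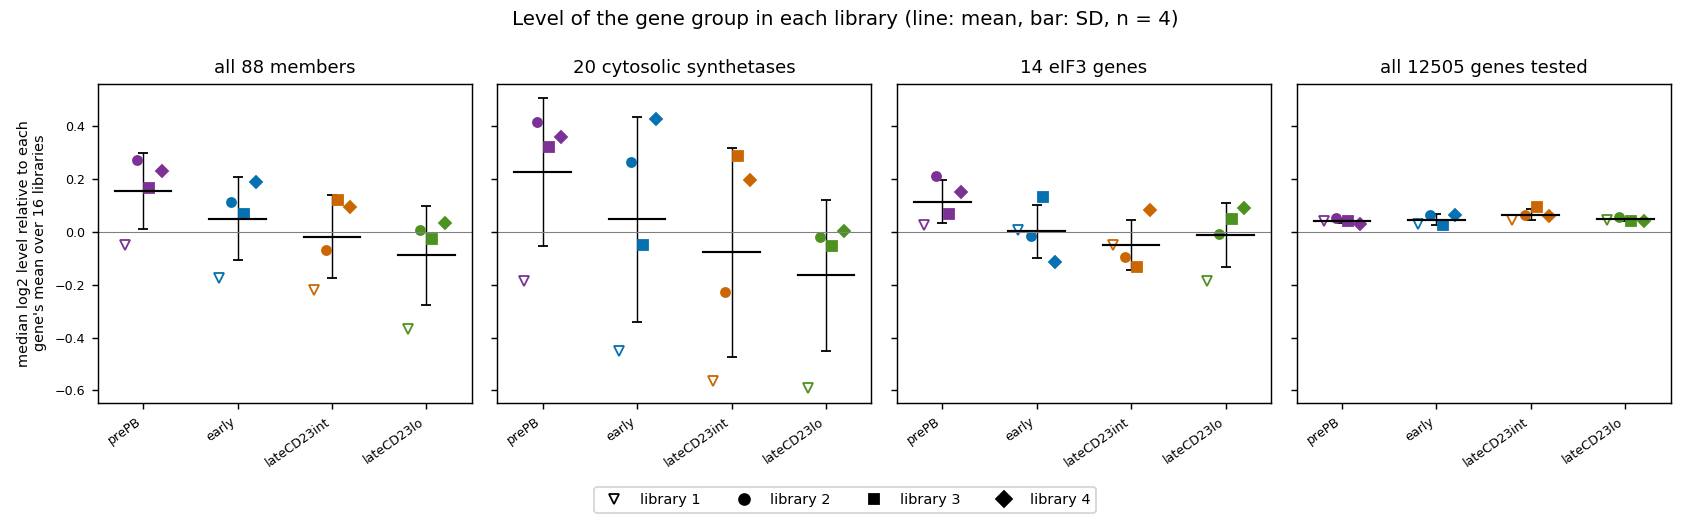
Median log2 level of a gene group in each library relative to each gene's mean over the 16 libraries (y axis), by subpopulation (x axis), for all members, cytosolic synthetases, eIF3 genes and all tested genes; symbols give the library number, lines the mean and bars the SD (n = 4). Library 1 of cMyc+lateCD23lo reaches -0.37 for all members and -0.59 for the cytosolic synthetases, while the medians of all genes stay between 0.03 and 0.09.

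Likeness was measured as the Pearson correlation of a member with the median of the other members over the 16 libraries, which share depth, batch and base composition. Its median was 0.46 over members, against -0.01 for the other 12417 genes. The closest were Tars (0.96), Eif5a (0.96) and Mars (0.94), and the most opposed were Eif1 (-0.89), Eif4a2 (-0.75), Eif5 (-0.75), Eif3h (-0.71), Eif4e3 (-0.61) and Eif5b (-0.56), genes chosen after their values were seen. Tars had 5142, 8219, 7097 and 7101 normalized counts in cMyc+prePB and 3498, 5971, 5287 and 5927 in cMyc+lateCD23lo, while Eif1 had 11462, 11591, 10550 and 10380 in cMyc+prePB and 14566, 11772, 11498 and 11446 in cMyc+lateCD23lo. All 20 cytosolic synthetases had a correlation above 0. It was below 0 in 23 members (26.1%), against 50.6% of the other genes, and over 0.5 in 42 members (47.7%), against 15.1%. GC content of the longest transcript had a median of 50.3% in the 42 members with a correlation over 0.5 and 44.1% in the 23 below 0, while the median transcript lengths were 2927 and 3366 bases. GC content was 50.9% in Eif1, 51.3% in Eif3h, 45.0% in Eif4e3, 43.7% in Eif5b, 41.7% in Eif5 and 40.2% in Eif4a2. The part of GC content in likeness was not tested. An E-box was found in 8 of 30 members with a correlation over 0.5 and a promoter window (26.7%) and in 4 of 18 below 0 (22.2%). The CARE core was found in 5 of the 30 (16.7%) and 0 of the 18. The 5 were all cytosolic synthetases, none of which had a correlation below 0, so the 0 follows from that group.

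**Figure D4:**
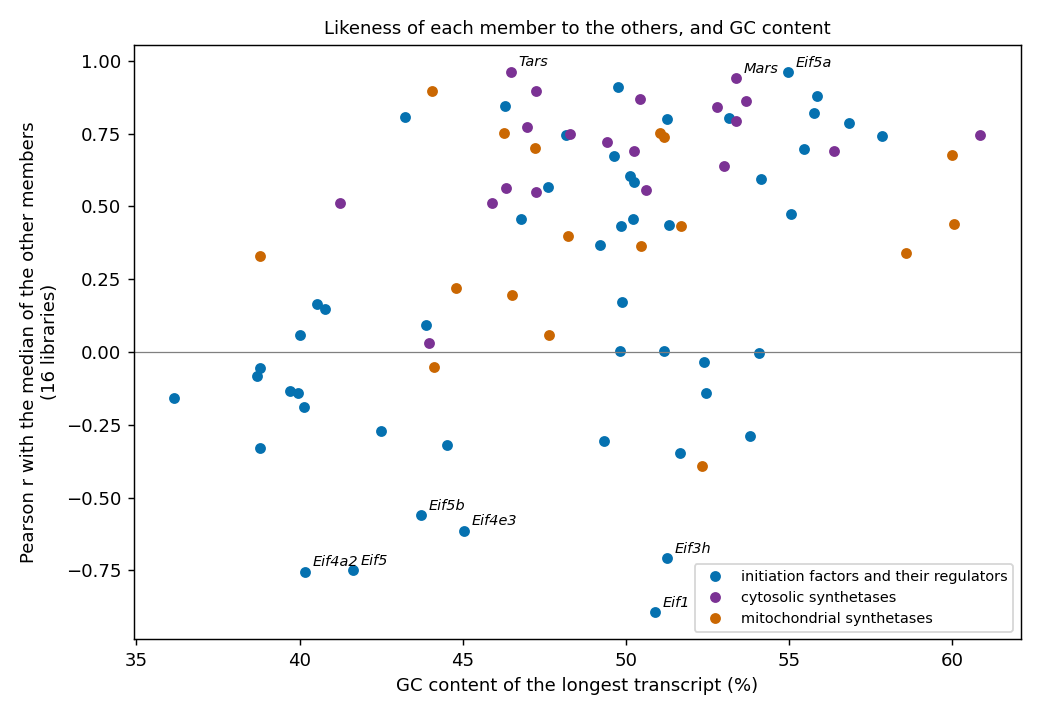
Pearson correlation of each of the 88 members with the median of the other members over 16 libraries (y axis) against the GC content of its longest transcript in percent (x axis), with points colored by initiation factors, cytosolic synthetases and mitochondrial synthetases. The cytosolic synthetases all lie above 0, with Tars at 0.96, and the 6 most opposed members, down to Eif1 at -0.89, are initiation factors.

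Other genes of the pathway had no call in these comparisons. Of 22 tested elongation and termination genes, 17 had a higher mean in cMyc+prePB against the other 3 together, with a median of 0.16 and 0 called. Eef2, the translocase, had 11310 ± 3245 in cMyc+prePB and 7740 ± 1132 in cMyc+lateCD23lo, and Pabpc1, the poly(A)-binding protein, 28314 ± 1924 and 24634 ± 2705. The 3 scaffold proteins of the multisynthetase complex had a median of 0.25, with 3 higher and 0 called. In the ATF4 response list 12 of 16 were higher and 0 called. Atf4 itself had 1315 ± 169 and 1184 ± 203, and its target Asns, asparagine synthetase, 2146 ± 1058 and 1360 ± 508. The mTOR control list had 7 of 15 higher, a median of -0.23 and 0 called. Myc, the gene of the sorted reporter, had 3823 ± 1022 in cMyc+prePB, 2503 ± 1214 for cMyc+early, 2079 ± 1245 in cMyc+lateCD23int and 1427 ± 229 in cMyc+lateCD23lo, with a log2 difference of 1.04 to the other 3 (SE 0.32; limma adjusted p = 0.199). Library 1 was the lowest for Myc in cMyc+prePB, cMyc+early and cMyc+lateCD23int.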

How the data were processed

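Total RNA of 4 sorted subpopulations was sequenced in 16 low-input libraries that do not mark strand. The deposited signal is a normalized count, the count of a gene scaled by 1 factor for its library. The submitters' processing notes name Trimmomatic 0.36, STAR 2.5.2a, RSEM 1.2.31, DESeq2 1.20.0, R 3.5.1 and GRCm38. All values were whole multiples of the smallest value above 0 of their library (tolerance 0.01), so that reads were recovered. Values were tested as log2(normalized count + 1) in limma 3.58.1 (R 4.3.3), with a trend of variance on level, 1 fit of all libraries, and p-values adjusted by Benjamini-Hochberg over 12505 genes, those whose mean was 10 or more. Changes of low genes are understated on this scale. Alternatives included edgeR 4.0.16 and DESeq2 1.42.0 on recovered reads, and the fits were tested on simulated data. Groups and library numbers came from the labels. The members, gene lists and tests were chosen with earlier results of these data known. The 12 members with the lowest F-test p-values were named by library, the next 12, the most and least abundant of each role and fixed members by group. Floors of 3 reads cover counting error only, since PCR copies were not marked. Gene coordinates, exon lengths and transcripts are from GENCODE for GRCm38, in which 91 of 91 members were found, and 36 had exons overlapping another gene. Paralogs such as Eif4a1 and Eif4a2 may share reads. Values of 1 member are not reported here by name.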

Additional observations from a re-analysis of the deposited data

Results flagged for a closer look

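A library far from the other 3 of its subpopulation was found in 7 of 60 groups examined. The groups were 12 members, the read share and 2 median levels in each subpopulation. For 1 group, chance gives about 1 in 20. The groups share libraries and genes and are not independent, so the 7 cannot be weighed against that rate. Eif2b3 had 3483 normalized counts in library 3 of cMyc+early, against at most 2130 in the others. In library 1, Eif4a1 had 30078 in cMyc+early and 28489 in cMyc+lateCD23lo, against at least 40970 and 37367 in the others, and Iars2 had 180 in cMyc+lateCD23int, against at least 517. The median log2 level of the members was -0.37 in library 1 of cMyc+lateCD23lo, and that of the cytosolic synthetases -0.59 there and -0.19 in library 1 of cMyc+prePB, against at least -0.06 and 0.32 in the others. Of these 7, 6 were a library numbered 1.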

How the results depend on the processing

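The count of called members was 0 in limma for all comparisons and stayed 0 under pseudocounts of 0.5 and 5, no filter, a mean of at least 50, the same total, quantile normalization, no trend, edgeR, only the groups compared and, added after seeing the data, without the 4 libraries numbered 1. Among all genes, 51 were called in the multigroup test, 25 with no trend, 31 with no filter, 29 by edgeR and 265 by DESeq2. DESeq2 called 1 member in the multigroup test, 1 against cMyc+lateCD23int, 1 against cMyc+lateCD23lo and 2 for cMyc+prePB against the other 3. Leaving out 1 library gave 0 to 1 in cMyc+prePB against cMyc+lateCD23int (Eif2b3, without cMyc+early library 3) and 0 to 1 against cMyc+lateCD23lo (Eif4ebp1, without cMyc+prePB library 1), and 0 to 0 elsewhere. With the library number as a replicate block, limma called 1 in the multigroup test (Eif5a, with 173 of all genes), 2 against cMyc+lateCD23int (Eif6 and Eif2b3), 2 against cMyc+lateCD23lo (Eif4ebp1 and Eif5a) and 3 against the other 3 (Eif6, Eif4ebp1 and Eif5a), and edgeR with the block called 1, 2, 1 and 3. For Eif5a the adjusted p in blocked limma was 0.0215 against the other 3 subpopulations and 0.0138 against cMyc+lateCD23lo. For the alternatives that called members, the count of all genes called is given only for the multigroup test of DESeq2 and of blocked limma. The other calls are not read as particular to the members. Deviations of same-numbered libraries correlated by -0.129 to 0.174 over all genes, over 0.1 in 5 of 24 pairs. The labels do not say what libraries of 1 number share, and the numbers were not taken as pairing. Over the members the mean correlation was 0.204 for same-numbered libraries, against -0.067 for libraries of other numbers and subpopulations. Over the members the correlations ran from -0.309 to 0.661, over 0.1 in 17 of 24 pairs, and over all genes 10 of 16 libraries correlated best with their own number, a hint from the data and not from the design. Eif2d reversed against the other 3 subpopulations, at -0.04, -0.15 and -0.02 without library 2, 3 or 4 of cMyc+prePB, in a range of -0.15 to 0.45 over all libraries left out. The direction of the other 11 members named by library was kept in every setting. cMyc+prePB was higher in 71 members with the same total and 66 with quantile normalization. Fewer eIF1 and eIF1A genes (0 in place of 2 of 5) were higher without the libraries numbered 1. The cause of these changes was not tested.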
